A study of Caenorhabditis elegans with 14 samples.

Results

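The vps and rab genes of Caenorhabditis elegans were examined on Affymetrix whole-genome arrays hybridised with total RNA of whole L4 larvae. A gene was taken as a member when its symbol in the platform annotation starts with vps- or rab-, which gave 54 of the 17138 genes measured, 34 vps and 20 rab. All 4 groups were wild-type N2 worms raised at 15 °C on bacterial lawns. The 5 microwave arrays came from worms kept at 26 °C over 2.5 h in a continuous-wave field at a specific absorption rate of 5 to 40 mW/kg, given as 1.8 GHz in one label and 1 GHz in another. The 5 sham arrays came from the other portion of the same cultures under the same temperature and time without the field. Each of these arrays was hybridised with RNA combined from 3 exposure runs, so each value is a pool of animals and not one culture. A separate set held 2 heat control and 2 heat shock arrays, whose labels repeat the microwave text, so the temperature and time of the heat treatment are not described here. The first comparison addresses whether a weak microwave field at fixed temperature alters transcripts, and the second sets a heat treatment beside it.

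Vesicles carry membrane and cargo between the endoplasmic reticulum, the Golgi, endosomes, lysosomes and the cell surface. The Vps proteins were first found in yeast as factors needed to sort proteins to the vacuole. Many of them work as complexes: ESCRT complexes bend endosomal membrane and pinch cargo into it, HOPS and CORVET tether endosomes and lysosomes, retromer and the GARP and EARP tethers serve retrieval and recycling, and Vps34 makes the lipid that marks early endosomes. Rab proteins are small GTPases that mark a membrane in their GTP form and recruit the tethers and motors for the next step. In the worm these genes are studied above all in the intestine, in oocytes that take up yolk and in neurons that release transmitter. The symbol does not fix the function. Vps-72 belongs to a chromatin complex, and vps-32.2 is a pseudogene in the RefSeq table.

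The values deposited were ratios and not intensities. Every sham value was exactly 1, and the 2 heat control values of a probe set summed to 2, so each microwave array appears to be scaled to its same-numbered sham array and each heat shock array to the average of both heat controls. That reading was inferred, since the baseline is not stated. No level of one gene against another, no detection limit and no check of tissue markers as levels could be had from such values. They are given below as log2 ratios, where 0 is the baseline and -1 is 2-fold lower. A gene's value is the mean over its probe sets that match 1 gene, and 79 such probe sets covered the 54 members. The heat labels need care: the inducible chaperone gene hsp-70 was 10.1-fold lower in the arrays labelled heat shock (log2 difference -3.34 ± 0.17, moderated SE, n = 2 and 2), and the small heat shock gene hsp-16.41 was 31.6-fold lower. This goes against the label, and every direction in the heat comparison below turns if the labels are exchanged. Errors in the fits are moderated SEs from limma, and a gene passed when its Benjamini-Hochberg adjusted p over all 17138 genes was under 0.05. Whether the replicate arrays are separate cultures is not said, so the p-values measure the spread between these arrays, which may be technical. In whole animals, fewer cells of a type and less RNA per cell cannot be told apart.

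In the heat comparison, 21 of the 54 members were lower in the arrays labelled heat shock and 3 were higher, while 30 did not pass. Over all genes, 14.8% were lower and 15.2% were higher by the same limma test, 30% in either direction. Among the vps genes 12 of 34 were lower and 2 higher, and among the rab genes 9 of 20 were lower and 1 higher. The lower members included ESCRT subunits, 2 of the 3 retromer subunits, 2 of the 3 Rabs of early and late endosomes and 4 of the 6 Rabs of recycling and apical transport, with decreases from 1.39-fold for vps-34 to 6.37-fold for vps-32.1. The median log2 difference was -0.34 over the vps genes and -0.38 over the rab genes, against 0.13 over all genes. When each array was centred on its own median, 14 vps and 11 rab genes were lower and 1 vps and 0 rab genes higher, where 17.2% of all genes were lower and 9.43% higher. Over all genes the same centring moved the calls from 2530 lower and 2603 higher to 2954 lower and 1616 higher. Decreases of more than 2-fold that passed numbered 8 among the vps genes and 7 among the rab genes, against 7.97% of all genes. The 2 arrays labelled heat shock both lay below both controls for 33 members and above them for 7, so 40 of 54 members had groups that did not overlap. The shares over all genes were 27.1% and 45.9%, and 72.9% in either direction.

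These counts rest on 4 arrays. Without the first array labelled heat shock no gene on the array passed, members included, although 5104 genes had an unadjusted p under 0.05 in limma. At that unadjusted threshold 12 vps and 8 rab genes were lower without it, and 13.9% of all genes were. Without the second, 6 vps and 5 rab genes were lower and 0 members higher, where 3.14% of all genes were lower and 1.58% higher. All 24 called members kept their sign in every alternative run.

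**Figure D1:**
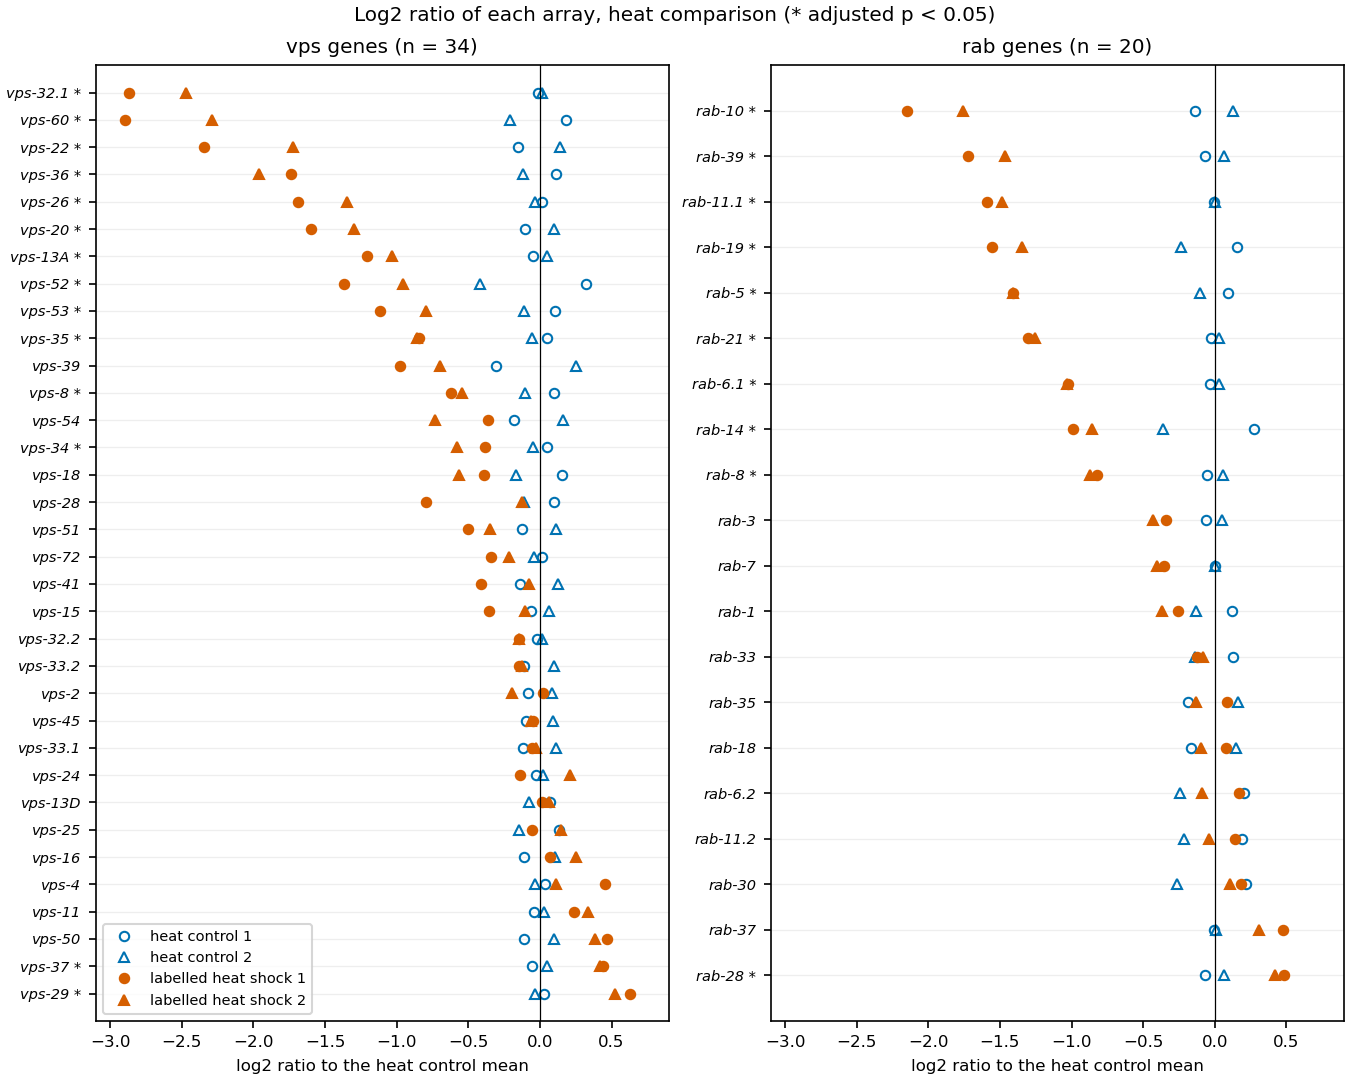
Log2 ratio to the heat control mean in each of the 4 heat arrays for the 34 vps genes (left) and the 20 rab genes (right), ordered by the difference between groups; open symbols are heat controls, filled symbols the arrays labelled heat shock, and stars mark adjusted p under 0.05. The lowest filled points are -2.90 for vps-60 among the vps genes and -2.15 for rab-10 among the rab genes, while the highest filled point is 0.63 for vps-29.

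The ESCRT genes held the largest decreases of the vps family, together with members that did not pass. Of 12 measured, 5 were lower and 1 was higher. Vps-32.1 encodes the Snf7-type subunit that polymerises on the endosomal membrane to cut vesicles inward. Its log2 ratios were -0.02 and 0.02 in the heat controls and -2.87 and -2.47 in the arrays labelled heat shock. The groups lay far apart, and the difference was -2.67 ± 0.17 (limma, adjusted p = 0.00233, 6.37-fold lower, n = 2 and 2). Vps-60, whose product is a late-acting relative of the ESCRT-III subunits, stood at 0.18 and -0.21 in the controls and at -2.90 and -2.29 in the others. The control arrays differed from each other by more than for vps-32.1, yet the groups did not overlap (difference -2.58 ± 0.25, limma adjusted p = 0.00396). Vps-20, the subunit that starts the polymer on contact with ESCRT-II, was at -0.10 and 0.10 against -1.60 and -1.30. Its difference of -1.44 ± 0.16 (limma adjusted p = 0.00483) is the mean of probe sets at -2.17 and -0.71, which share the sign but not the size.

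ESCRT-II links ubiquitin-bound cargo to that polymer, and 2 of its 3 subunits were lower. Vps-22 read -0.15 and 0.14 in the controls and -2.34 and -1.72 in the arrays labelled heat shock, 4.07-fold lower (log2 -2.03 ± 0.24, limma adjusted p = 0.00575). Vps-36 read 0.11 and -0.12 against -1.74 and -1.96, 3.59-fold lower (-1.84 ± 0.15, limma adjusted p = 0.00283). For both genes all 4 arrays separated the groups by more than 1 log2 unit. The remaining subunit, vps-25, differed by 0.05 with a 95% interval from -0.34 to 0.45, and its arrays overlapped. The difference between the subunits of the complex was not itself tested.

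Of the other ESCRT members, vps-37 was the only one to pass. Vps-37 of ESCRT-I, the complex that binds ubiquitinated cargo, was at -0.05 and 0.05 in the controls and at 0.44 and 0.42 in the arrays labelled heat shock. It passed narrowly as higher, by 1.35-fold (0.43 ± 0.12, limma adjusted p = 0.047). It no longer passed with the arrays centred, with a gene length trend removed or with the replicate number as a block. Nor did it pass without probe sets that may match several transcripts. Its partner vps-28 stood at -0.46 ± 0.25 and did not pass, with the arrays labelled heat shock at -0.80 and -0.12. Vps-4, the ATPase that takes the polymer apart, was at 0.03 and -0.04 in the controls and at 0.45 and 0.11 in the others. Those arrays lay above the controls, but the difference of 0.28 ± 0.16 did not pass (limma adjusted p = 0.215). The capping subunits vps-2 and vps-24 differed by -0.08 and 0.04.

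Retromer retrieves receptors from endosomes to the Golgi or the cell surface, and its 3 cargo-binding subunits all passed, but not in the same direction. Vps-26 had log2 ratios of 0.01 and -0.04 in the controls and -1.69 and -1.35 in the arrays labelled heat shock. It was 2.84-fold lower (-1.51 ± 0.15, limma adjusted p = 0.00435). Vps-35, the long scaffold that holds the other subunits, had 0.05 and -0.06 against -0.85 and -0.86, and its arrays agreed closely within each group (-0.85 ± 0.12, limma adjusted p = 0.0082). Vps-29 had 0.03 and -0.03 against 0.63 and 0.53, so both arrays lay above both controls (0.58 ± 0.12, limma adjusted p = 0.0232, 1.49-fold higher). Its call was lost with the replicate number as a block, and its only probe set may match several transcripts.

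HOPS and CORVET hold 8 measured members, of which vps-8, a CORVET subunit, was lower (-0.58 ± 0.13, limma adjusted p = 0.0298) and 7 did not pass. Vps-39, a HOPS subunit, lay just outside the threshold. Its values were -0.31 and 0.25 in the controls and -0.98 and -0.70 in the others, with a difference of -0.81 ± 0.23 (limma adjusted p = 0.0501). Vps-41, its HOPS partner, read -0.14 and 0.13 against -0.41 and -0.07, with groups that overlapped (-0.24 ± 0.17, limma adjusted p = 0.333). A further probe set shared by vps-41 and the gene Y34B4A.2 was not used for either. Vps-34, the kinase itself, was at 0.05 and -0.05 in the controls and at -0.38 and -0.58 in the arrays labelled heat shock. It passed narrowly (-0.48 ± 0.13, limma adjusted p = 0.0486), and several alternatives ended that call. Its regulatory partner vps-15 stood at -0.23 ± 0.14 and did not pass.

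In the GARP and EARP tethers, which catch vesicles returning to the Golgi or to recycling endosomes, 2 of 5 members were lower. Vps-52 was at 0.32 and -0.42 in the controls and at -1.37 and -0.95 in the arrays labelled heat shock. The spread between its controls was wide, and its call (-1.11 ± 0.29, limma adjusted p = 0.0415) was lost under a length correction and under the block. Vps-53 was at 0.10 and -0.11 against -1.11 and -0.80, with no overlap (-0.95 ± 0.16, limma adjusted p = 0.0145). Vps-51 and vps-54 stood at -0.42 and -0.54 and did not pass. Vps-50, the subunit particular to EARP, stood at 0.43 ± 0.13 and did not pass either (limma adjusted p = 0.0642). Outside these complexes, vps-13A, a lipid transfer protein gene, was 2.17-fold lower (-1.12 ± 0.13, limma adjusted p = 0.00519). The related vps-13D differed by 0.04, vps-45, which assists endosomal SNAREs, by -0.05, and the chromatin gene vps-72 by -0.27, none of which passed.

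Of the 3 Rabs of early and late endosomes, 2 were lower. Rab-5 organises early endosomes and their fusion. Its log2 ratios were 0.09 and -0.10 in the controls and -1.41 and -1.41 in the arrays labelled heat shock. It was 2.64-fold lower (-1.40 ± 0.13, limma adjusted p = 0.00336), and both of its probe sets passed, at -1.48 and -1.32. Rab-21, a further early endosome Rab, had -0.03 and 0.03 against -1.30 and -1.26, with almost no spread inside either group (-1.28 ± 0.11, limma adjusted p = 0.00329). Rab-7, which takes over from rab-5 on late endosomes and lysosomes, had arrays at -0.35 and -0.40 against controls within 0.01 of 0. The groups were apart, but the difference of -0.38 ± 0.11 did not pass (limma adjusted p = 0.0596). It passed with the arrays centred, with a length trend removed and without probe sets that may match several transcripts.

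Among the 6 Rabs of recycling and apical transport, 4 were lower. Rab-10 is needed in the worm intestine to return cargo to the basolateral surface. It stood at -0.14 and 0.13 in the controls and at -2.15 and -1.76 in the arrays labelled heat shock, the largest decrease of the family (-1.95 ± 0.18, limma adjusted p = 0.00367, 3.86-fold). Rab-11.1, the recycling endosome Rab, stood at -0.01 and 0.0047 against -1.59 and -1.48 (-1.54 ± 0.12, limma adjusted p = 0.00262, 2.90-fold). All 3 of its probe sets passed, from -1.89 to -1.22. Its close relative rab-11.2 differed by 0.07 with a 95% interval from -0.39 to 0.52, and its arrays overlapped. Rab-8, which serves delivery to the cell surface, stood at -0.06 and 0.05 against -0.82 and -0.87 (-0.85 ± 0.12, limma adjusted p = 0.00851). Rab-14 stood at 0.27 and -0.36 against -0.99 and -0.85. Its groups did not overlap, but the wide control spread left it near the threshold (-0.88 ± 0.23, limma adjusted p = 0.0436). A length correction ended the call, and so did the replicate number as a block. Rab-35, a recycling Rab of yolk receptors, differed by -0.01.

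Of the 6 Golgi and secretory Rabs, 1 passed. Rab-6.1, for retrograde traffic to and through the Golgi, was at -0.03 and 0.03 in the controls and at -1.03 and -1.03 in the others (-1.03 ± 0.11, limma adjusted p = 0.00484, 2.04-fold lower). Its paralog rab-6.2 differed by 0.06, with probe sets of opposite sign. Rab-1, the Rab of transport from the endoplasmic reticulum to the Golgi, was at 0.12 and -0.13 against -0.25 and -0.37 and did not pass (-0.31 ± 0.14, limma adjusted p = 0.154). Rab-18, rab-30 and rab-33 differed by 0.00015, 0.17 and -0.10, with arrays that overlapped. Neither paralog contrast, rab-11.1 with rab-11.2 or rab-6.1 with rab-6.2, was itself tested.

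The Rabs of regulated secretion did not pass, and the remaining Rabs all did. Rab-3, which sits on synaptic vesicles, read -0.06 and 0.05 in the controls and -0.34 and -0.43 in the arrays labelled heat shock (-0.38 ± 0.12, limma adjusted p = 0.0682). Its probe sets disagreed, at -0.83 and 0.07, and the gene passed with the arrays centred. Rab-37 differed by 0.39 ± 0.12. Rab-39 was 3.02-fold lower, with -0.07 and 0.07 against -1.72 and -1.47 (-1.59 ± 0.14, limma adjusted p = 0.00335). Rab-19 was 2.66-fold lower, with 0.16 and -0.23 against -1.55 and -1.35 (-1.41 ± 0.18, limma adjusted p = 0.00656). For both of them every array labelled heat shock lay more than 1 log2 unit below every control. Rab-28, a Rab found on the sensory cilia of worm neurons, was the only higher one, at -0.07 and 0.07 against 0.48 and 0.42. It passed narrowly (0.45 ± 0.12, limma adjusted p = 0.0464) and did not with the arrays centred. The call was also lost without probe sets that may match several transcripts and with the replicate number as a block. The worm genes for Rab2 and Rab27 are named unc-108 and aex-6 on the platform and so are not members; unc-108 was lower (-0.43 ± 0.11, limma adjusted p = 0.0426) and aex-6 stood at 0.27 ± 0.27.

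Probe sets of the same gene did not always agree. Of the 21 members with more than 1 probe set, 5 had probe sets of opposite sign in the heat comparison, namely rab-3, rab-30, rab-6.2, vps-11 and vps-2. The largest of these gaps was for rab-3, and for vps-11, a HOPS and CORVET core subunit, the probe sets stood at 0.61 and -0.02. All 5 were among the members that did not pass. For 22 members every probe set carries the suffix for sequences that may match several transcripts, which include vps-32.1, vps-60, vps-22, vps-36 and rab-10. Without such probe sets 17 vps and 15 rab genes were left. Of these 4 vps genes and 8 rab genes were lower and 0 were higher, where 11.7% of all genes left were lower. In the main fit 5 and 7 of the same genes were lower. The medians over the genes left were -0.13 and -0.46.

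**Figure D2:**
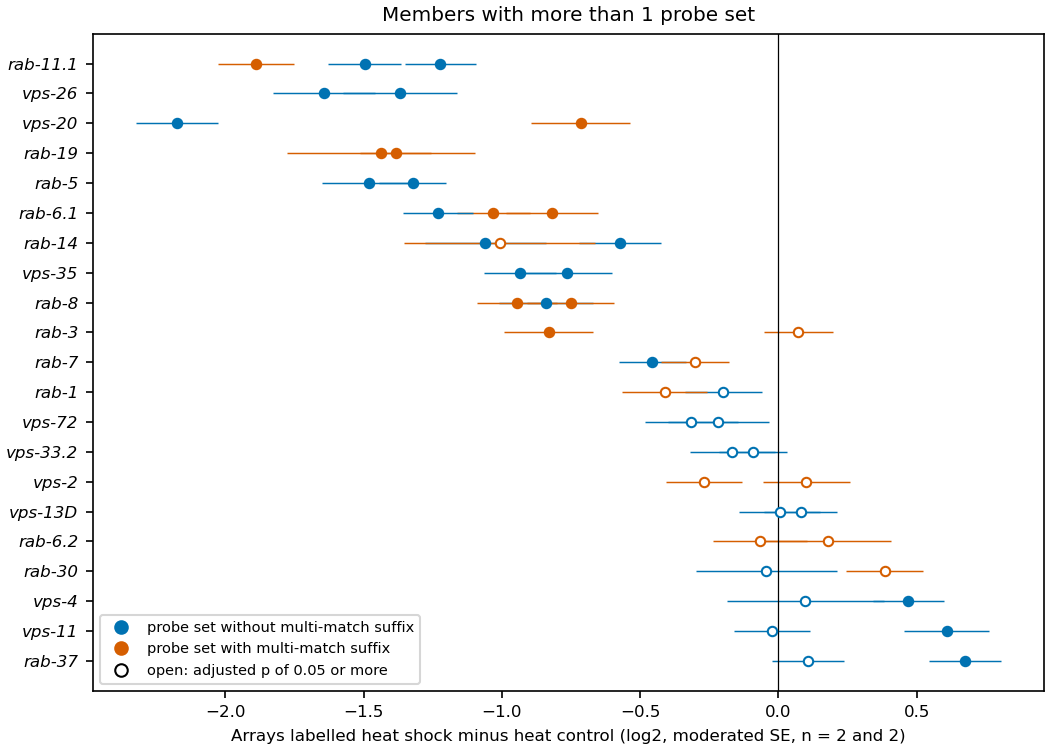
Log2 difference with its moderated SE (n = 2 and 2) of each single-gene probe set of the 21 members that have more than 1; orange points carry the suffix for possible multiple matches, and open points did not pass at the probe set level. Vps-20 spans -2.17 to -0.71 and rab-3 spans -0.83 to 0.07, while rab-5, rab-19 and rab-8 each lie within 0.20 log2 units.

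Members that passed tended to be shorter genes than members that did not. The median gene length in the RefSeq table of assembly WBcel235 was 1739 bp for the 21 lower members, 1106 bp for the 3 higher and 4161 bp for the 30 that did not pass. Over all genes with a length it was 2185 bp. By family it was 2607 bp for the lower vps genes and 1198 bp for the lower rab genes. The vps and rab genes that did not pass had 4827 and 3043.5 bp. Across the 54 members the heat difference and log10 gene length had r = 0.38 (Spearman rho 0.29), whereas over the 17085 genes with a length r was -0.15. These correlations are across genes of the same arrays, which are not independent replicates. With the length trend of each array removed, 10 vps and 9 rab genes were lower and 2 of each were higher, where 14.0% of all genes were lower and 16.1% higher.

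Genes that act with the members moved in the same arrays. Of 134 measured genes in 10 lists of trafficking genes, 55 were lower and 6 higher, with a median of -0.34. The shares over all genes were 14.8% lower and 15.2% higher, with a median of 0.13. Among the partners of ESCRT 5 of 7 were lower, among them stam-1 (-1.91 ± 0.23) and hgrs-1 (-1.32 ± 0.17), which form the complex that first gathers ubiquitinated cargo. Among SNAREs, the fusion proteins that act after Rabs and tethers, 11 of 22 were lower and 1 higher. The lowest were ykt-6 (-2.50 ± 0.14) and unc-64, the syntaxin of synapses (-2.38 ± 0.12). COPII, the coat of vesicles leaving the endoplasmic reticulum, had 5 of 7 lower, with sec-12 at -1.60. COPI, the coat of retrograde Golgi vesicles, had 4 of 7 lower, with copd-1 at -1.77, and 1 higher, copz-1 at 0.64. Clathrin and its adaptors had 9 of 18 lower, with aps-1 at -1.64, and 1 higher.

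Among Rab regulators, the exchange factors and GTPase-activating proteins, 7 of 31 were lower (22.6%) and 1 higher, with a median of -0.06. Sand-1, which serves the exchange of rab-5 for rab-7, stood at -1.73 ± 0.12 and tbc-6 at -1.64 ± 0.11. TRAPP, the exchange complex of Rab1 in yeast, had 1 of 9 lower and 1 higher, trpp-12 at -0.61 and trpp-10 at 0.83. The sorting nexins and other retromer partners had 1 of 8 lower (12.5%), snx-17 at -0.75, and a median of 0.01. The lower shares of TRAPP and of the retromer partners lie below the 14.8% over all genes. The exocyst, a tether at the cell surface, had 3 of 8 lower, the most by exoc-7 at -0.90. Other small GTPases had 9 of 17 lower and 1 higher, with mig-2 at -1.79 and cdc-42 at -1.56.

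**Figure D3:**
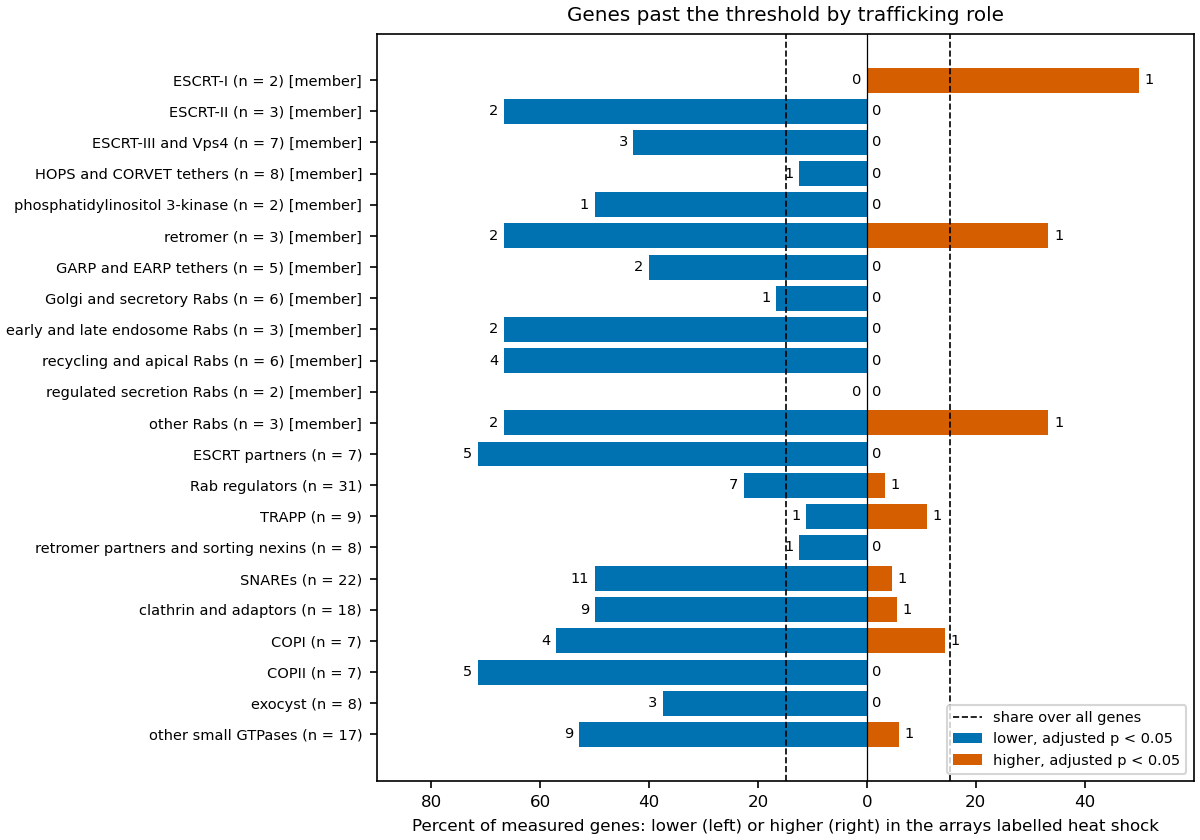
Percent of the measured genes that were lower (left of 0) or higher (right of 0) in the arrays labelled heat shock at adjusted p under 0.05, for each role of the vps and rab genes and for the other trafficking lists; dashed lines give the shares over all genes, 14.8% lower and 15.2% higher. ESCRT-II, retromer, early and late endosome Rabs, recycling Rabs and other Rabs lie at 66.7% lower, while HOPS and CORVET lie at 12.5%. Of the roles at 66.7%, all but the recycling Rabs have only 3 measured genes. ESCRT partners and COPII lie at 71.4% lower.

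Markers of some tissues moved with the members and those of others did not. In the heat comparison 5 of 6 intestine genes were lower (median -1.01), 5 of 6 body wall muscle genes were lower and 1 higher (median -0.88), and 3 of 6 hypodermis genes were lower and 1 higher (median -0.68). Germ line had 2 of 6 lower (median -0.27) and neurons 2 of 6 lower (median 0.05), the latter being SNARE genes also listed above. Embryo had 1 lower and 1 higher of 6 (median 0.03), and sperm 1 lower and 2 higher of 5 (median 0.11). The shares over all genes were 14.8% lower and 15.2% higher, with a median of 0.13. No oocyte marker of 6 passed (median 0.23), but their mean was -0.90 in the first heat control and 0.54 in the second. The part of tissue makeup in the members' differences was not tested.

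In the microwave comparison no member passed, nor did any of the 17138 genes (0% called). The lowest adjusted p among members was 0.872 in limma. At an unadjusted p under 0.05 there were 2 members, rab-3 and rab-28, where 571 genes (3.33%) had one. Rab-3 had log2 ratios of 0.43, 0.06, 0.01, 0.21 and 0.12 in pairs 1 to 5. It was above 0 in 5 of 5 pairs, by a mean of 0.17 ± 0.07, or 0.10 without pair 1. Its unadjusted p in limma was 0.0438. Rab-28 had -0.43, -0.03, -0.24, 0.03 and -0.21, below 0 in 4 of 5 pairs, with a mean of -0.17 ± 0.07, or -0.11 without pair 1. Its unadjusted p in limma was 0.0474. For 48 of the 54 members the 95% interval of the mean lay within a 1.5-fold change in either direction, against 98.4% of all genes, and for 53 it lay within a 2-fold change, against 100% of all genes after rounding.

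The members with the next smallest p-values owed much of their mean to the first pair. Vps-15 had 0.99, 0.17, 0.23, -0.06 and 0.16 and a mean of 0.30 ± 0.14. Rab-1 had 1.63, 0.34, 0.03, -0.19 and 0.16 and a mean of 0.39 ± 0.24. In both genes pair 1 stood far above the others. Vps-32.1 was not among the members with the next smallest p-values (unadjusted p = 0.208 in limma). It had 1.85 in pair 1 and between -0.17 and 0.12 in the others, for a mean of 0.38 ± 0.27. Vps-72, vps-18 and vps-37 had means of 0.20 ± 0.11, 0.20 ± 0.13 and 0.19 ± 0.13, each with its highest value in pair 1. Rab-11.1 had 0.49 in pair 1 and a mean of 0.14 ± 0.09, and rab-5 had 1.41 there and a mean of 0.31 ± 0.21. Rab-7 had a mean of -0.0021, vps-4 of 0.04, vps-34 of 0.11, vps-35 of 0.18 and vps-41 of 0.02.

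As groups, the means were above 0 in 28 of 34 vps genes and 16 of 20 rab genes, against 48.6% of all genes. The median was 0.06 for vps and 0.09 for rab. Without pair 1 these medians were -0.02 and 0.02. In pair 1 alone the medians were 0.42 for vps and 0.39 for rab, against -0.01 over all genes, and in pairs 2 to 5 the median over both families lay between -0.06 and 0.06. Log2 ratios above 0.5 in pair 1 were found in 23 of the 54 members, 16 vps and 7 rab, against 9.97% of all genes. Pair 1 held the highest of the 5 values in 38 members, against 33.4% of all genes.

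Pair 1 stood apart over the whole array as well. Its SD over probe sets was 0.387, where the other pairs ranged from 0.101 to 0.164. Its worm control transcripts with probe sets at both ends had 3′ minus 5′ differences that averaged -0.74 over 5 transcripts. They ran from -1.89 for catalase to 0.03 for gly14. The averages of the other 4 pairs ranged from -0.13 to 0.03 and those of the heat arrays from -0.02 to 0.05. Single transcripts of the arrays labelled heat shock had mixed signs, with actin at 0.22 and 0.33 and gly14 at -0.33 and -0.37. The part of RNA quality in the pair 1 values was not tested.

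**Figure D4:**
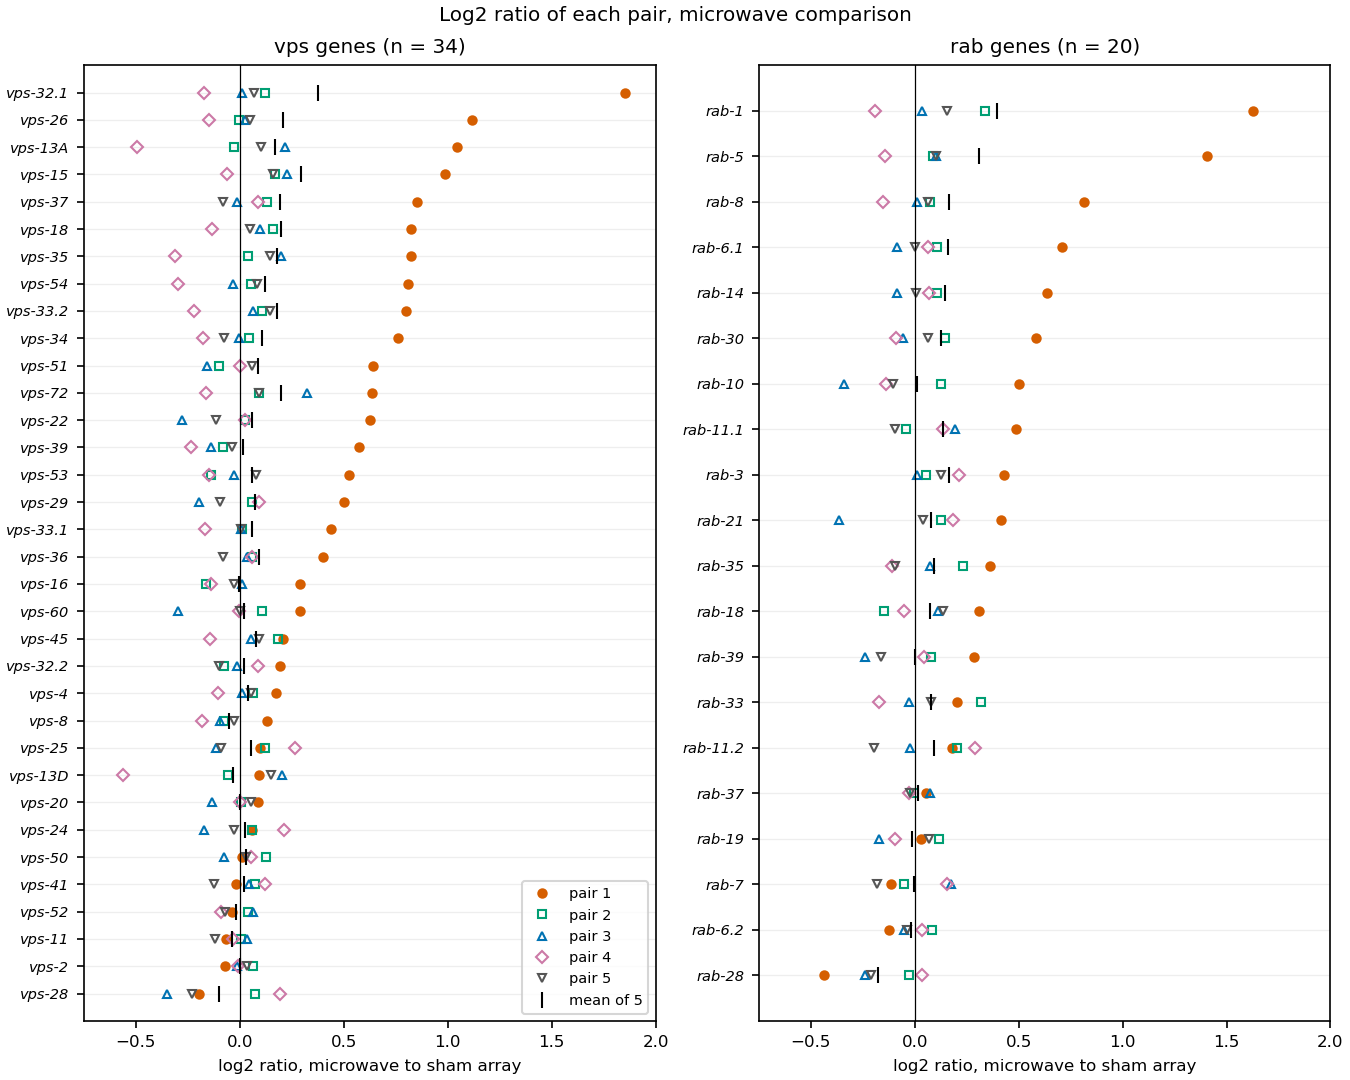
Log2 ratio of microwave to sham in each of the 5 pairs (points) and their mean (vertical tick) for the vps genes (left) and the rab genes (right). Pair 1 lies to the right of the others for most members, up to 1.85 for vps-32.1, while pairs 2 to 5 cluster around 0.

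The heat difference and the microwave mean were compared directly in a fit over the 9 arrays with a spread. For each gene the fit took a shared spread for pair ratios and heat arrays, although the 2 kinds of value differ. The difference between these effects passed for 22 members in the lower direction and 4 in the higher, where 16.7% and 21.5% of all genes passed. Of the 21 members lower in heat, 20 also passed here, and of the 3 higher, 1 did. This fit used the same heat arrays as the heat calls, so that overlap is not separate support for them. The difference was -3.05 ± 0.60 for vps-32.1 (limma adjusted p = 0.00364), -1.96 ± 0.27 for rab-10 (limma adjusted p = 5.9e-04) and -1.94 ± 0.18 for vps-36 (limma adjusted p = 8.3e-05). The members that passed in heat and not here were vps-34, vps-37 and vps-29.

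Members with a lower value in heat tended to have a higher value in pair 1, as did genes in general. Pair 1 was above 0.5 in 12 of the 21 lower members and in 11 of the other 33. Over the 54 members the heat difference and pair 1 had r = -0.39, and over all 17138 genes r was -0.41. With the mean of pairs 2 to 5 r was 0.22 over the members and 0.04 over all genes. The 2 comparisons share no arrays, and the points of each correlation share the same few arrays.

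**Figure D5:**
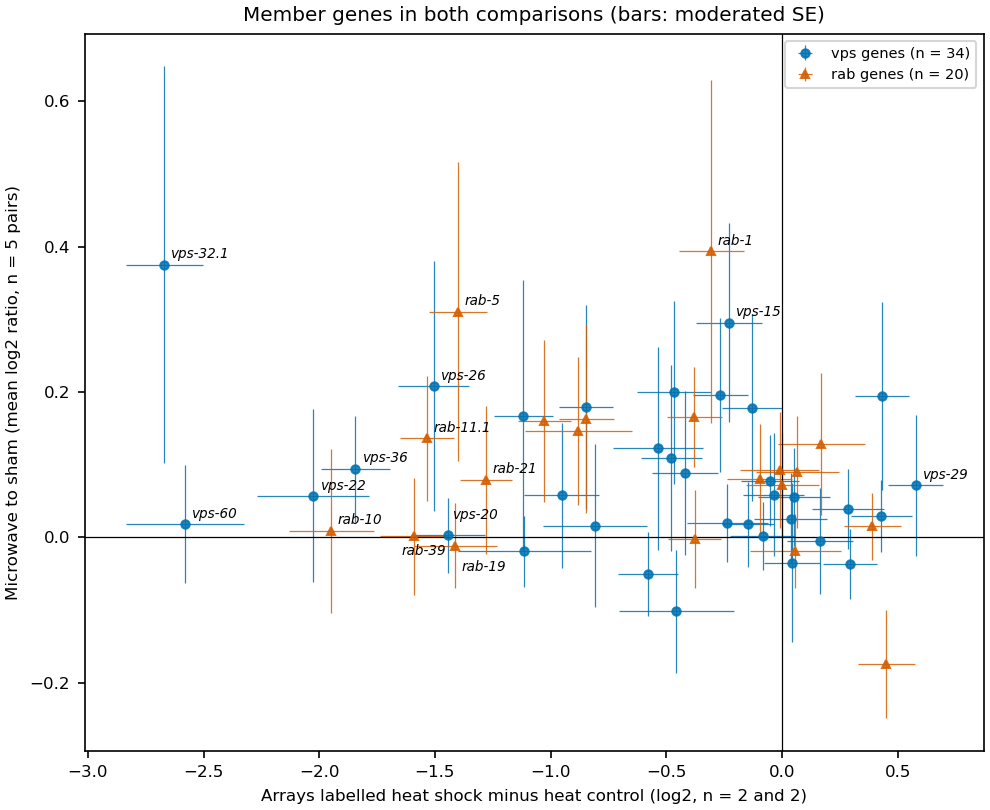
Heat difference (x, log2, n = 2 and 2) against the mean microwave to sham log2 ratio (y, n = 5 pairs) for the 54 members, with moderated SE on both axes. The x values run from -2.67 to 0.58, while all but 5 y values lie within 0.2 of 0 and the largest, 0.39 for rab-1 and 0.38 for vps-32.1, carry the widest bars.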

How the data were processed

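The authors deposited linear ratios for 22625 probe sets on 14 arrays. GCOS served to read the arrays and MAS 5 to normalise them, per the labels' protocols, and RMA is listed with no version in the submitters' processing notes. The step that gave the ratios and the genome build are not given in the sources used here.

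In R 4.3.3, 77 control probe sets were left out of the tests and ratios were put on the log2 scale. The platform annotation named the probe sets: 20766 had 1 gene, 887 several and 895 none. Gene values are means over single-gene probe sets. Limma 3.58.1 (lmFit and eBayes, two-sided, Benjamini-Hochberg over 17138 genes, threshold 0.05) fitted the 5 microwave pair ratios against 0, 2 heat shock against 2 heat control arrays, and the difference of these effects. The microwave pairs share a culture per the labels. Heat arrays of the same number were not treated as pairs (correlation of their deviations -0.06). The fits were tested on simulated data, drawn as independent normal values. Such data hold no outlying pair and no correlation between genes, so that test does not cover these.

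Values were given for the 10 largest called changes per family in heat, the 4 smallest p-values per family in microwave, 8 preset genes, members whose probe sets disagree, and up to 4 genes of each other list. Some of these have a value for every array, and others only a mean, a difference or probe set values. The members, the lists and the roles were chosen with earlier results of these data known. No array gave a scan date, so no batch was tested. The number of arrays limits the precision. Alternatives were centring, quantile scaling, probe set choice, median summary, robust variance, array weights, a length trend, a replicate block and leaving out each array.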

Additional observations from a re-analysis of the deposited data

Results flagged for a closer look

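In the microwave comparison 1 pair stood far from the other 4 for 11 of the 54 members, by Dixon's test at the 95% level, which chance flags in about 1 in 20 groups. Over all genes 1924 of 17138 had such a pair. In each of these members it was pair 1, and it was the highest. How often pair 1 was the flagged pair over all genes was not counted. The members were 5 genes of endosomal sorting complexes and tethers, 2 of the lipid kinase and 4 Rabs. Vps-32.1, the polymer-forming ESCRT-III subunit, read 1.85 in pair 1. Vps-37 of ESCRT-I read 0.85. Vps-26 of retromer read 1.12. Vps-39 of HOPS read 0.57 and vps-51 of the GARP and EARP tethers 0.64. Of the kinase, the catalytic vps-34 read 0.76 and its partner vps-15 read 0.99. Among the Rabs, rab-5 read 1.41, rab-8 read 0.82, rab-6.1 read 0.71 and rab-14 read 0.64. The other 4 pairs lay between -0.23 and 0.23 in all 11. Of the microwave pairs, pair 1 also had the widest spread over probe sets, and its 3′ minus 5′ differences were -0.74 on average. The part of these in the members' values was not tested.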

How the results depend on the processing

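The microwave count stayed at 0 genes and 0 members under every alternative, with 287 to 1340 genes at an unadjusted p under 0.05 in limma and a lowest adjusted p of 0.599. In heat, leaving out 1 array in turn gave 0 to 5064 called genes of a main 5133, 0 to 12 lower and 0 to 1 higher vps genes, and 0 to 9 lower and 0 higher rab genes. The family medians then ran from -0.37 to -0.20 for vps and from -0.41 to -0.34 for rab. Without the first array labelled heat shock 0 genes passed (lowest adjusted p 0.0572), and without the second 809. The replicate block, which the numbers do not justify as a pairing, gave 3299 genes and 0 higher vps and 0 higher rab genes. Centring left 1 higher vps and 0 higher rab genes and moved the rab median to -0.49. Without probe sets that may match several transcripts 17 vps and 15 rab genes were left. Of these 4 vps and 8 rab genes were lower, where 5 and 7 of the same genes were lower in the main fit. Among them 0 vps and 0 rab genes were higher, and the medians over the genes left were -0.13 and -0.46. With the length trend removed 2 rab genes were higher. The test of the difference between effects gave 4284 to 7181 genes with 1 array left out. Of the 24 members called in heat, 17 were called in every alternative that keeps all 4 arrays; vps-8, vps-29, vps-34, vps-37, vps-52, rab-14 and rab-28 were not. The cause of these losses was not tested. Separately, the fits with 1 array left out have fewer degrees of freedom.

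Microwave means near 0 changed sign. That of rab-7 was 0.00313 centred, 0.00873 without the length trend and 0.011 after quantile scaling, and ranged from -0.046 to 0.042 with 1 pair left out. That of vps-41 was -0.00324 without the length trend and ranged from -0.00558 to 0.055. That of vps-34 was -0.00062 with array weights and ranged from -0.054 to 0.18. Symbols of the RefSeq table gave the same members. No filter on dim probe sets was run, since ratios hold no brightness, and the sham values of 1 leave no fit without the pair.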
